A study of Mus musculus with 111 samples.

Results

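The cytosolic cysteine tRNAs are the tRNAs that carry cysteine to ribosomes in the cytosol. They were taken from a table of small RNA read counts as the entries named tRNA-Cys, an anticodon and 1 number, with no antisense mark and no mitochondrial prefix. This rule gave 10 of the 1268 entries, all with the anticodon GCA, so its limit, which would have kept the 10 selected on summed counts, did not come into play. They are tRNA-Cys-GCA-1 to tRNA-Cys-GCA-8, tRNA-Cys-GCA-13 and tRNA-Cys-GCA-17, written GCA-1 to GCA-17 from here on. The study used OTTR-seq, whose reverse transcriptase joins both adapters to an RNA as it copies it, on small RNA of 6 mouse tissues. These were testis, sperm, the caput and cauda of the epididymis, heart and liver. Mice ate 1 of 4 diets for 6 months. The low-protein diet (LP) had 10% protein, with sucrose in place of the missing mass, and its control (C) had 18%. The high-fat diet (HF) had 60% of calories from fat, where the label gives 16% as the usual level, and its control (C_HF) had 7.2%. The 24 groups held 4 or 5 libraries each. Strain and age are not in the labels used here. Whether the libraries of 1 group stand for different animals is not stated, so a p-value here reflects how far these libraries spread, which may be technical.

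A tRNA reads a codon through its anticodon, and GCA pairs with both codons for cysteine. Mammalian genomes hold many copies of each tRNA gene, and copies that share an anticodon but differ elsewhere in sequence are called isodecoders. tRNAs and their fragments are a large share of the small RNA of mature sperm, and some fragments there vary with the diet of the male in mice. The table has no entry per fragment. Its column headers end in a code, gt65, whose meaning the sources used here do not give, so whether reads were chosen by length, and whether pieces of a tRNA are in its count, is unknown.

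RefSeq lists 57 genes for cytosolic cysteine tRNA with this anticodon in the mouse assembly GRCm38.p6. Of these, 49 lie on chromosome 6 between 47978997 and 48363603, a stretch of 385 kb, 5 lie on chromosome 11, 2 on chromosome 9 and 1 on chromosome 17. The genes are 72 bases long in 56 cases and 70 in 1, so levels of different copies can be compared without a length correction. RefSeq and the table number the copies differently and were not matched. Copies of near-identical sequence share reads, and the sources used here do not say how these were divided, so the level of any single copy is uncertain. The mitochondrial cysteine tRNA, encoded on the organelle's own genome and used in its own ribosomes, has the same anticodon and served as a comparator. Its gene is mt-Tc, at chrM:5192-5257 on the minus strand of GRCm38, and its 66 bases are shown here from GENCODE with the anticodon, bases 29 to 31, in capitals to mark what it shares with the 10 cytosolic entries.
mt-tRNA-Cys-GCA-1: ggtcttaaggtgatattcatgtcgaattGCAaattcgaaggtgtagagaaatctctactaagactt

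Depth over the 1042 features kept after repeated entries were reduced to 1 ran from 827 to 1467880 reads per library, with a median of 59904. Levels are RPM, reads per 1000000 reads of the library over these features. The median library held 220 cysteine tRNA reads, and the lowest held 0. Libraries under 5000 reads were HF liver replicate 3, with no cysteine tRNA read, and LP caput replicates 2 and 3, with 7 and 3. Precursors of piRNAs, which are made in germ cells, held 4.54% ± 3.79 of the reads of testis libraries (SD, n = 19), against a mean of 0.602% or less in each other tissue. Markers of liver, heart or epididymis were not analysed here. In such bulk samples, fewer cells of a type and less RNA per cell cannot be told apart.

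One isodecoder carried most of the signal. GCA-3 held 126574 of the 151014 cysteine tRNA reads, or 83.8%, and had reads in 110 libraries. GCA-2 held 7.46%, GCA-5 held 3.02%, GCA-1 held 2.78% and GCA-7 held 1.498%. The other 5 were rare: GCA-4 had 1444 reads, GCA-17 had 398, GCA-8 had 214, GCA-6 had 63 and GCA-13 had 38 over all libraries. The 10 antisense entries of the same names held 3 reads together. A filter on low counts left 8 members to test in testis, 4 in liver, 4 in heart and 3 in each of caput, cauda and sperm, while 6 (GCA-1, GCA-2, GCA-3, GCA-4, GCA-5 and GCA-7) were tested between tissues. GCA-6 and GCA-13 passed it nowhere.

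**Figure D1:**
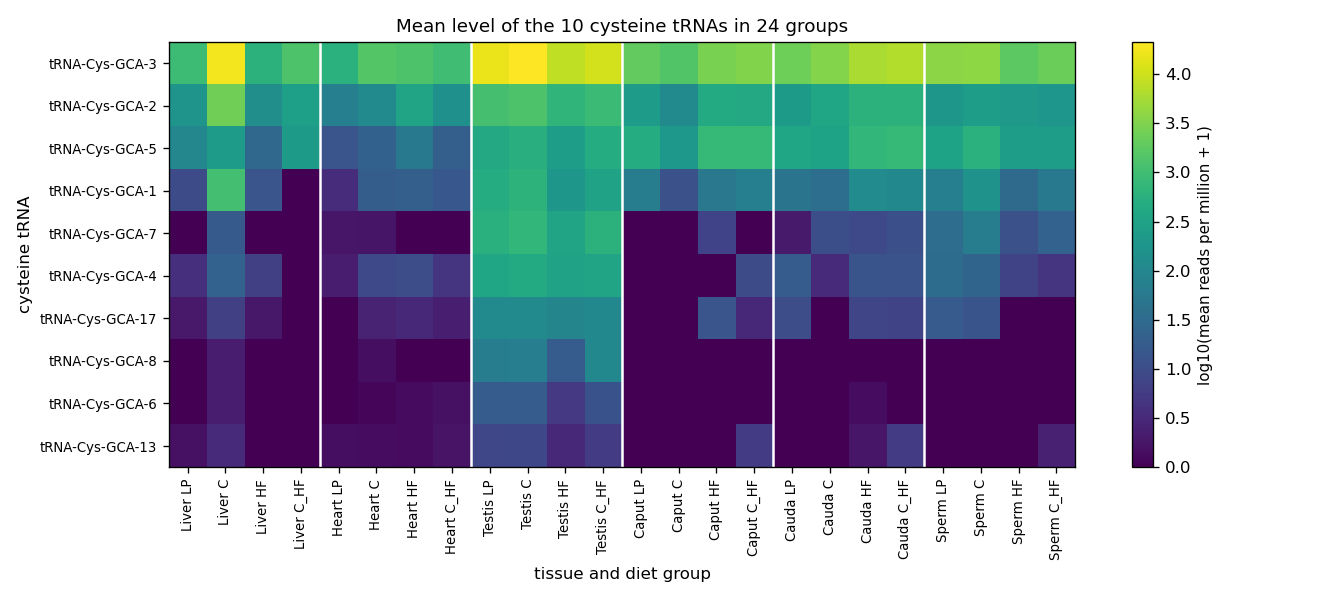
Mean level of each of the 10 cytosolic cysteine tRNAs (rows, by total reads) in the 24 groups of tissue and diet (columns), as log10 of mean RPM plus 1. GCA-3 is the brightest row in every tissue, GCA-7, GCA-4, GCA-17 and GCA-8 stand out in the 4 testis columns, and the control-diet liver is the one liver column where the first 4 rows, apart from GCA-5, are as bright as in testis.

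Testis had the most cysteine tRNA. The family made up 3.82% ± 1.13 of cytosolic tRNA reads in testis (SD, n = 19), 1.95% ± 0.721 in sperm (n = 19), 1.41% ± 0.672 in cauda (n = 18), 1.16% ± 1.33 in liver (n = 17), 0.554% ± 0.236 in heart (n = 19) and 0.551% ± 0.181 in caput (n = 19). The means of heart and caput lay within 1 SD of each other, as did those of sperm and cauda. On the control diet alone, sperm had 1.63% to 2.61% and cauda 0.868% to 1.39%, without overlap. On each other diet the ranges of sperm and cauda overlapped. The difference between sperm and cauda in this share was not tested. The liver mean rested on its control diet: the 4 control libraries had 2.95% to 4.29%, and the other 13 had 0% to 0.762%, with a mean of 0.466% ± 0.205 that lies below heart. One LP sperm library (replicate 1) had 3 cysteine tRNA reads and 0.210%.

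**Figure D2:**
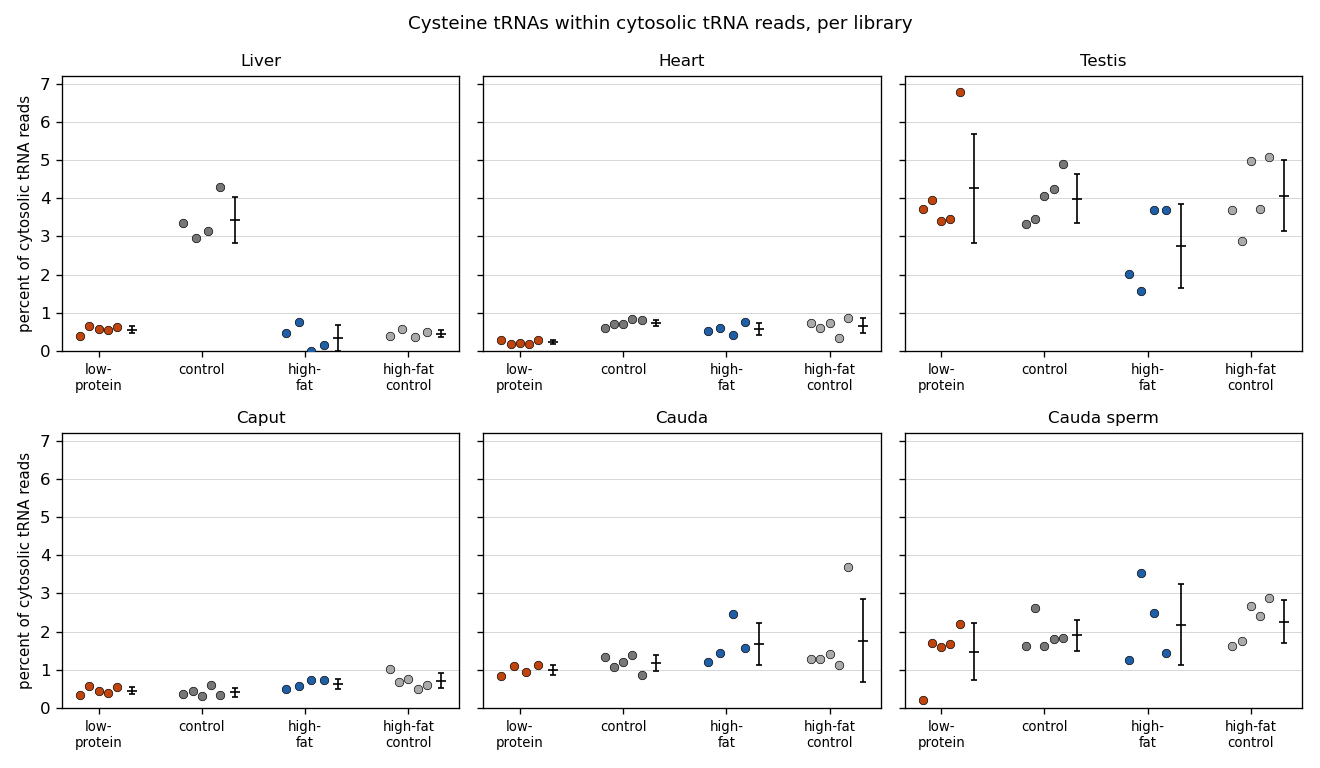
Reads of the 10 cysteine tRNAs as a percent of cytosolic tRNA reads, per library (points), with the mean and SD of each group beside the points (lower bars end at 0), by tissue and diet. The 4 control-diet livers, at 2.95% to 4.29%, lie above the other 13 livers, and replicate 5 of the C_HF cauda, at 3.69%, lies above the other cauda libraries.

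GCA-7 and GCA-4 were mostly testis tRNAs. GCA-7 ran from 198 to 1058 RPM over the 19 testis libraries, with a median of 631, and its highest value in any other tissue was 151, in sperm. GCA-4 ran from 176 to 569 RPM in testis, with a median of 389, and reached at most 163 elsewhere, also in sperm. The testis range of each copy therefore lay above every library of the other tissues. Of the reads of each copy over the whole table, testis held 97.7% for GCA-8, 96.2% for GCA-7, 90.5% for GCA-6, 88.0% for GCA-4 and 86.7% for GCA-17. It held only 49.8% for GCA-3, 43.6% for GCA-1, 34.03% for GCA-2 and 31.9% for GCA-5. These percents pool reads over libraries of unequal depth, so they mix depth with level. For GCA-5, cauda held 36.3% and caput 8.53% of the reads, at means of 553 and 548 RPM. GCA-8 was listed with no read in caput, cauda or sperm, which allows up to 4.34, 1.45 and 3.83 RPM there if 3 reads are taken as the floor.

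Against the mean of the other 5 tissues, 4 of the 6 tested members were higher in testis, where 42.9% of all 294 features were called higher. In fits of single tissues GCA-7 and GCA-4 passed the filter on low counts in testis alone. They thus entered the comparisons of tissues through the tissue where they are high. The counts out of 6 and the p-values of these 2 copies are therefore descriptions, here and in the other tissue comparisons. A tissue difference was called where the adjusted p was under 0.05 and the log2 fold change was 1 or more in size. GCA-7 was 5.70 ± 0.25 higher on the log2 scale (SE, adjusted p = 3.48e-46, edgeR's quasi-likelihood test with Benjamini-Hochberg adjustment), and GCA-4 was 4.14 ± 0.25 higher (adjusted p = 6.87e-33). GCA-1 was 1.72 ± 0.31 higher and GCA-3 was 1.33 ± 0.25 higher in the same edgeR fit (adjusted p = 3.29e-07 and 8.43e-07). GCA-2 differed by 0.69 ± 0.26, below the fold required, and GCA-5 had a log2 difference of -0.04 (adjusted p = 0.896). GCA-7 and GCA-4 kept their call under all 10 alternatives, between 5.40 and 6.80 and between 3.72 and 5.37 on the log2 scale, with 5.65 and 4.13 when no filter was used. GCA-3 lost its call when only the 2 control diets were used, at 0.82.

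Mature sperm held less of the same tRNAs than testis. In sperm, GCA-7 had 33.7 ± 42.7 RPM, against 565 ± 239.5 RPM in testis (SD, n = 19 each), and GCA-4 had 17.1 ± 41.4 RPM in sperm against 366 ± 114 RPM in testis. Of the 6 members, 5 were lower in sperm than in testis, beside 45.9% of all features. The log2 fold changes were -4.13 ± 0.46 for GCA-4, -3.41 ± 0.38 for GCA-7, -1.82 ± 0.47 for GCA-1, -1.65 ± 0.36 for GCA-3 and -1.63 ± 0.37 for GCA-2, with adjusted p-values from 7.22e-15 to 0.000253 in edgeR's quasi-likelihood test, and all 5 kept their call under the 10 alternatives. GCA-5 did not pass the test, with 356 ± 269 RPM in sperm and 418 ± 160 RPM in testis (log2 difference, sperm minus testis, 0.42 ± 0.31, adjusted p = 0.211). Its direction depended on the scaling, with -0.26 by total counts. Sperm had more GCA-7 than the cauda epididymis around it, 33.7 ± 42.7 RPM against 7.76 ± 9.96 RPM (n = 18), a log2 difference of 1.61 ± 0.47 (adjusted p = 0.00248, edgeR). That was 1 of 6 members, beside 22.8% of all features called higher. It rests on 23 reads in sperm and 21 in cauda, and the call was lost with the 2 control diets alone and with all entries as deposited (adjusted p = 0.0812 and 0.0571), the range over 10 alternatives being 9.53e-06 to 0.0812.

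The epididymis had a different mix of isodecoders from testis. Among the 89 libraries with at least 50 cysteine tRNA reads, GCA-5 made up 16.4% ± 3.88 of the family in caput (SD, n = 12), 11.6% ± 4.33 in sperm (n = 15), 9.57% ± 2.49 in cauda (n = 18), 4.605% ± 4.73 in liver (n = 10), 2.56% ± 0.742 in testis (n = 19) and 1.94% ± 1.23 in heart (n = 15). The caput libraries ran from 7.89% to 24.2%, above every testis library, which ran from 1.60% to 3.79%. The liver mean joined control livers at 1.10% ± 0.392 (n = 4) with LP livers at 8.61% ± 5.33 (n = 4), which ran from 3.81% to 13.5%. A high share of GCA-5 was thus not limited to the epididymis and sperm. GCA-2 was instead highest over all diets in liver, at 13.8% ± 5.28, and heart, at 12.1% ± 5.81, and stood at 6.18% ± 1.41 in testis. The heart value varied with diet, with means of 7.08% on control (n = 5), 7.44% on LP (n = 2), 13.5% on C_HF (n = 4) and 19.5% on HF (n = 4). On the control diet the mean of cauda, at 8.92%, lay above that of heart. GCA-7 and GCA-4 took 3.38% ± 0.857 and 2.42% ± 1.34 in testis and under 1% on average elsewhere. No test was made on these shares.

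**Figure D3:**
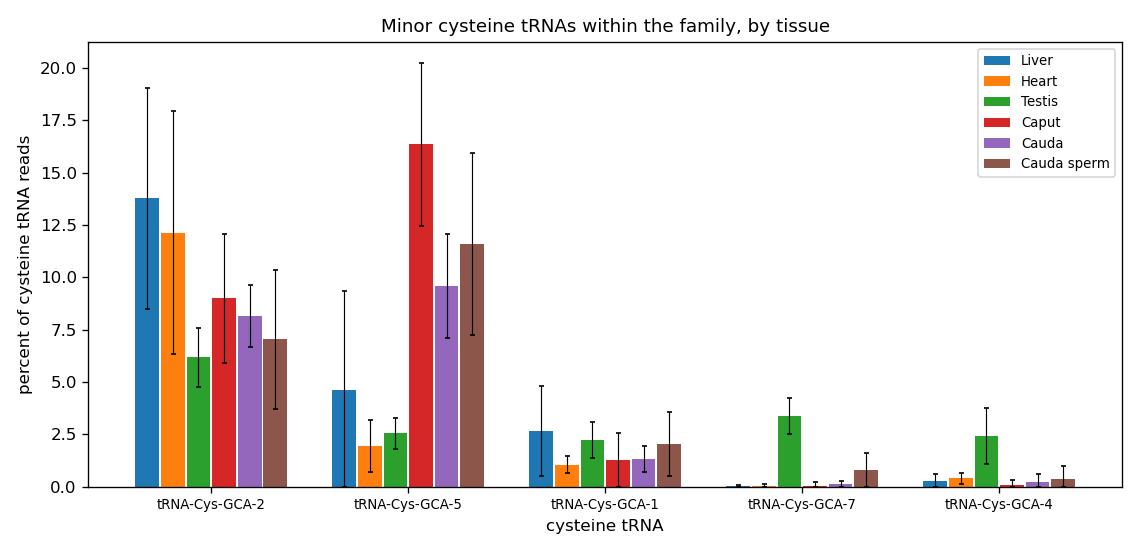
Share of 5 minor isodecoders in the cysteine tRNA reads (percent, mean and SD over libraries with at least 50 such reads, lower bars ending at 0), by tissue. GCA-5 is tallest in caput at 16.4%, and GCA-7 and GCA-4 are tallest in testis at 3.38% and 2.42%.

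Against the mean of the other tissues, 4 of 6 members were lower in caput, beside 33.3% of all features, with log2 differences of -3.21 ± 0.71 for GCA-7, -2.60 ± 0.58 for GCA-4, -1.62 ± 0.50 for GCA-1 and -1.03 ± 0.30 for GCA-3 (adjusted p from 4.57e-05 to 0.00301 in edgeR's quasi-likelihood test). GCA-7 and GCA-4 had 1 and 3 reads in the 19 caput libraries, and were tested through their level in testis. Only GCA-4 remained called when the 4 control-diet livers were left out. GCA-7 was then at -2.54, and its SE of 446 comes from an F near 0 and is not a usable measure of spread. GCA-2, at -0.97 ± 0.32, and GCA-5, at 0.87 ± 0.25, were under the fold required. Caput was not the lowest tissue for the more abundant members, as GCA-3 averaged 2365 ± 1074 RPM in caput and 1080 ± 495 RPM in heart, and GCA-2 averaged 293 ± 237 RPM in caput and 161 ± 125 RPM in heart (SD, n = 19 each). Whether the members differ from each other in this respect was not tested. The next segment, cauda, had 4 of 6 members higher than caput, beside 40.8% of all features, with log2 differences of 2.41 ± 0.77 for GCA-7, 1.49 ± 0.68 for GCA-4, 1.24 ± 0.56 for GCA-1 and 1.03 ± 0.36 for GCA-3 (adjusted p from 0.00377 to 0.0437 in the same edgeR fit). Without replicate 5 of the C_HF cauda only GCA-7 stayed called, GCA-3 being at 0.75. GCA-5 was higher in cauda than in the mean of the other tissues, at 1.08 ± 0.23 (1 of 6 members, beside 27.9% of all features, adjusted p = 2e-05, edgeR), and fell to 0.81, under the fold required, without that library. Sperm had 1 member higher than the mean of the other tissues, GCA-7 at 1.60 ± 0.36, and 1 lower, GCA-2 at -1.26 ± 0.31, where 64.3% of all features were called. For GCA-7 this rests on 23 reads in sperm, beside a mean that takes in 1 read in caput and 6 in heart. At 33.7 RPM sperm lay far below the 565 RPM of testis. The GCA-2 call was lost under 4 of the 10 alternatives, with log2 values of -0.45 under DESeq2 size factors and -0.88 when scaled to cytosolic tRNA.

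In heart, GCA-5 was scarce. It averaged 25.4 ± 20.7 RPM there, from 0 to 73.2, and its mean over libraries was 145 RPM or more in each other tissue. Its log2 difference from the mean of the other tissues was -1.77 ± 0.28 (adjusted p = 3.18e-08, edgeR), called under all 10 alternatives. GCA-7 was also lower in heart, at -2.93 ± 0.61, which makes 2 of 6 members, beside 28.9% of all features, but that call was lost without the control-diet livers and with the 2 control diets alone. Low RPM in heart was not particular to GCA-5. Heart also had the lowest mean of the 6 tissues for GCA-3 (1080 RPM), GCA-2 (161 RPM) and GCA-1 (13.2 RPM). These 3 were not called by the reported fit, at -0.03, 0.50 and -0.82, while total counts called all 6 members in heart. In liver 2 of 6 members were higher, GCA-1 by 1.32 ± 0.38 and GCA-2 by 1.15 ± 0.28, beside 16% of all features. Without the control-diet livers these log2 values were -1.53 and -0.06, so neither describes liver on the other 3 diets. The mitochondrial cysteine tRNA followed another order. It averaged 10009 ± 8492 RPM in heart, the tissue with little cytosolic cysteine tRNA, and 1730 ± 1132 RPM in testis, and was 3.74 ± 0.22 higher in heart and -2.25 ± 0.31 in testis against the mean of the other tissues (adjusted p = 1.11e-32 and 1.03e-10, edgeR). Within heart its mean was 23120 RPM on the control diet, and 2375, 7201 and 6673 RPM on LP, C_HF and HF.

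The strongest diet contrast was in liver, where for GCA-1, GCA-2 and GCA-3 the control diet stood apart from the other 3 diets. GCA-3 had 879, 925, 540, 1267 and 996 RPM in the 5 LP livers, against 13381, 17702, 15350 and 25044 RPM in the 4 control livers. GCA-2 had 79.9, 102, 44.5, 306 and 320 RPM in LP livers, against 2583, 2036, 2618 and 2671 RPM in control livers. GCA-1 had 0, 0, 25.4, 6.15 and 11.8 RPM in LP livers, against 909, 970, 903 and 1476 RPM in control livers. For all 3 tRNAs the groups did not overlap. The share of all features without overlap was not counted, here or in the other diet comparisons. The log2 fold changes were -6.27 ± 0.74 for GCA-1, -3.97 ± 0.81 for GCA-3 and -3.36 ± 0.76 for GCA-2 (adjusted p = 5.78e-06, 0.000564 and 0.00154, edgeR's quasi-likelihood test). For diets the adjusted p alone decided, at 0.05, and 25.9% of 205 features were called lower. GCA-5 had 98.1 ± 39.7 RPM in LP livers (n = 5) and 236 ± 81.5 RPM in control livers (n = 4), a log2 difference of -1.12 ± 0.60 that did not pass (adjusted p = 0.158).

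**Figure D4:**
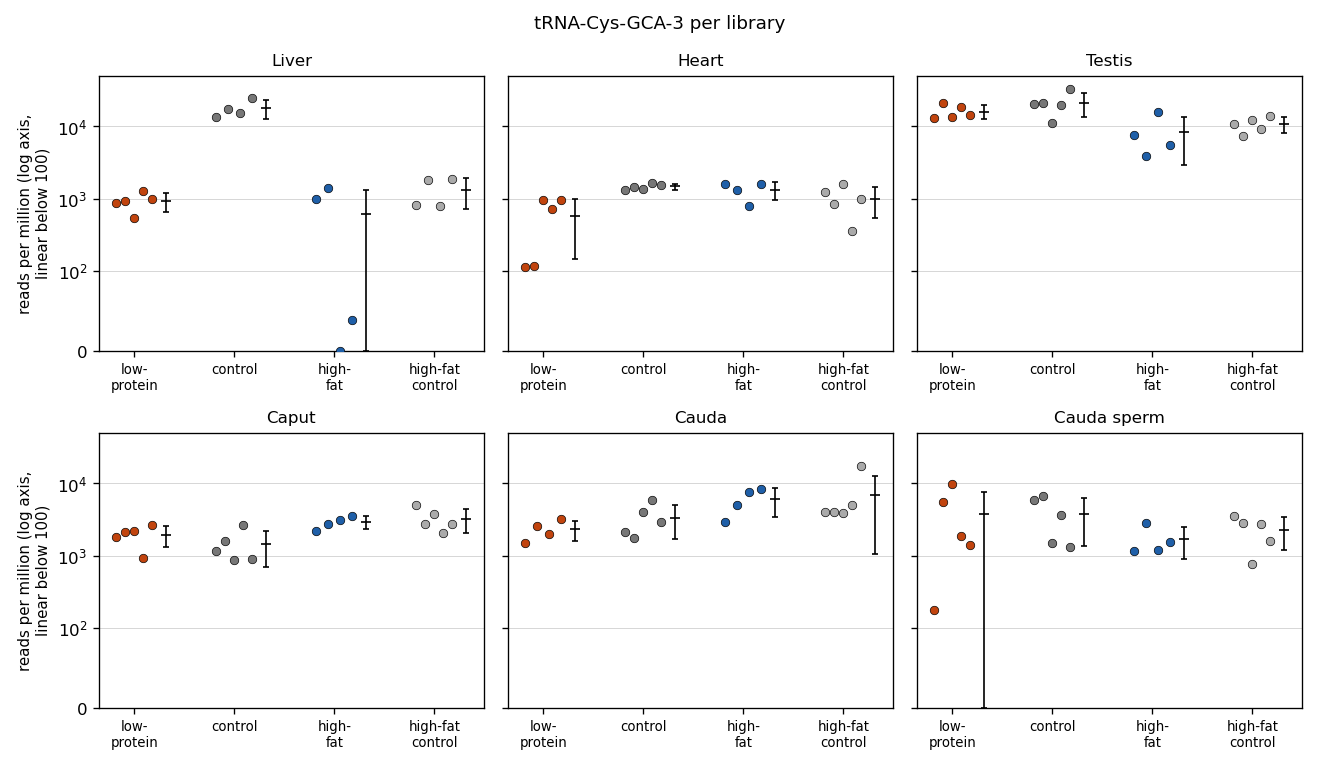
Level of GCA-3 in each library (points) with group mean and SD (bars, lower ends at 0), by tissue and diet, on a log axis that is linear below 100 RPM. The 4 control livers, from 13381 to 25044 RPM, lie in the testis range and above every other liver library, while diet groups overlap in caput and sperm.

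C_HF livers were compared with the same 4 control livers, so the comparison is not independent of the one before. In C_HF livers GCA-3 had 813, 1798, 796 and 1891 RPM and GCA-2 had 542, 133, 319 and 111.2 RPM, all below the control livers. Their log2 fold changes, C_HF minus C, were -4.34 ± 0.91 and -3.62 ± 0.89 (adjusted p = 0.00113 and 0.00502, edgeR), and 20% of all features were called lower. GCA-1 had no read in the 52429 reads of the C_HF group and was called lower as the third of 4 members (adjusted p = 0.000206, edgeR). With 3 reads over the group as the floor, or 57.2 RPM, it was at least 21.5-fold lower than the 1231 RPM of the pooled control livers. GCA-5 had 181, 200, 319 and 222 RPM in C_HF livers and 143, 197, 324 and 279 RPM in control livers, which overlap (adjusted p = 0.528, edgeR). Between LP and C_HF livers none of the 4 members was called by edgeR or by DESeq2, none had an unadjusted p under 0.05, and 0% of all features were called. GCA-3 differed there by 0.36 ± 0.78 on the log2 scale. GCA-5 had 52.9 to 153 RPM in LP livers and 181 to 319 RPM in C_HF livers, without overlap. Its log2 difference was -0.41 ± 0.72 (adjusted p = 0.987, edgeR), and it rests on 85 and 11 reads.

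Several measures moved together with the control livers. Cytosolic tRNAs took 50.9% to 70.9% of their reads, against 4.57% to 44.7% in the other 13 livers, and 49 of the 66 other cytosolic tRNAs tested were also lower on LP, with a median log2 fold change of -2.41, beside -3.67 over the 4 cysteine tRNAs and 0.13 over all features. The mitochondrial cysteine tRNA, with 5361 ± 1419 RPM in LP livers and 4747 ± 2153 RPM in control livers, and the selenocysteine tRNA, with 361 ± 173 and 455 ± 269 RPM, did not pass the test (adjusted p = 0.721 and 0.996, edgeR). When library sizes were set on cytosolic tRNAs alone, the median of all features moved to 2.29, GCA-1 and GCA-3 stayed lower in LP livers, with GCA-3 at -1.64 (adjusted p = 0.0402), and GCA-2 lost its call at -1.26 (adjusted p = 0.111). Over all 18 alternatives the adjusted p ran from 1.83e-06 to 0.0402 for GCA-3 and from 1.63e-05 to 0.111 for GCA-2. The table's column headers also hold a number whose meaning is not given, and the livers carried 48 to 52 for LP, 1 to 4 for control, 53 to 56 for HF and 44 to 47 for C_HF. Each diet thus held its own run of numbers, so diet and whatever the numbers mark cannot be told apart. The same holds for the 4 diets in testis, caput, cauda and sperm and for LP and control hearts, while the C_HF and HF heart columns carry no number. The control livers were also deeper, with a median of 294412 reads, against 157380 in LP, 162506 in HF and 12002 in C_HF livers.

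Within the control livers the mix of isodecoders differed too. GCA-1 made up 4.91% ± 0.325 of the family in the 4 control livers, from 4.63% to 5.34%, and 0% to 3.60% in the 4 LP livers with at least 50 cysteine tRNA reads. GCA-5 made up 1.10% ± 0.392 in control livers and 8.61% ± 5.33 in those LP livers. The ranges of the groups did not overlap for either tRNA, and no test was made.

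In heart, 3 of 4 members were lower on the low-protein diet, beside 41.7% of 242 features called lower, but the direction depended on the scaling. GCA-3 had 113, 117, 959, 725 and 947 RPM in LP hearts, against 1313, 1469, 1377, 1655 and 1563 RPM in control hearts. The groups did not overlap, and LP replicates 1 and 2 lay below the other 3 LP hearts. GCA-3 changed by -1.78 ± 0.51 (adjusted p = 0.000815, edgeR), GCA-1 by -1.82 ± 0.71 and GCA-2 by -1.18 ± 0.49 (adjusted p = 0.0143 and 0.0227). GCA-1 rests on 6 reads in LP hearts and 98 in control hearts. Of the 94 other cytosolic tRNAs tested, 74 were called lower and 6 higher, with a median of -3.11, beside -1.48 over the cysteine tRNAs and -0.29 over all features. Scaled to cytosolic tRNAs, which moved the median of all features to 2.20, the 3 members turned positive, GCA-3 to 0.37 and GCA-2 to 1.18 (adjusted p = 0.264 and 0.0291, edgeR; ranges over 18 alternatives 3.06e-05 to 0.264 and 0.000171 to 0.407). As a plain share of cytosolic tRNA reads the family stood at 0.239% ± 0.0527 in LP hearts and 0.737% ± 0.0892 in control hearts (SD, n = 5 each), with no overlap. None of the 3 members tested stayed called when only these 2 diets were fitted, nor when control replicate 1 was left out. The 2 lowest LP hearts also had 5.35% and 7.31% of their reads on cytosolic tRNAs, against 36.5% to 52.2% in the other LP hearts and 21.2% to 23.9% in control hearts, and LP hearts were shallower, with a median of 176730 reads against 1101120 in control hearts. The part of either in the result was not tested.

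**Figure D5:**
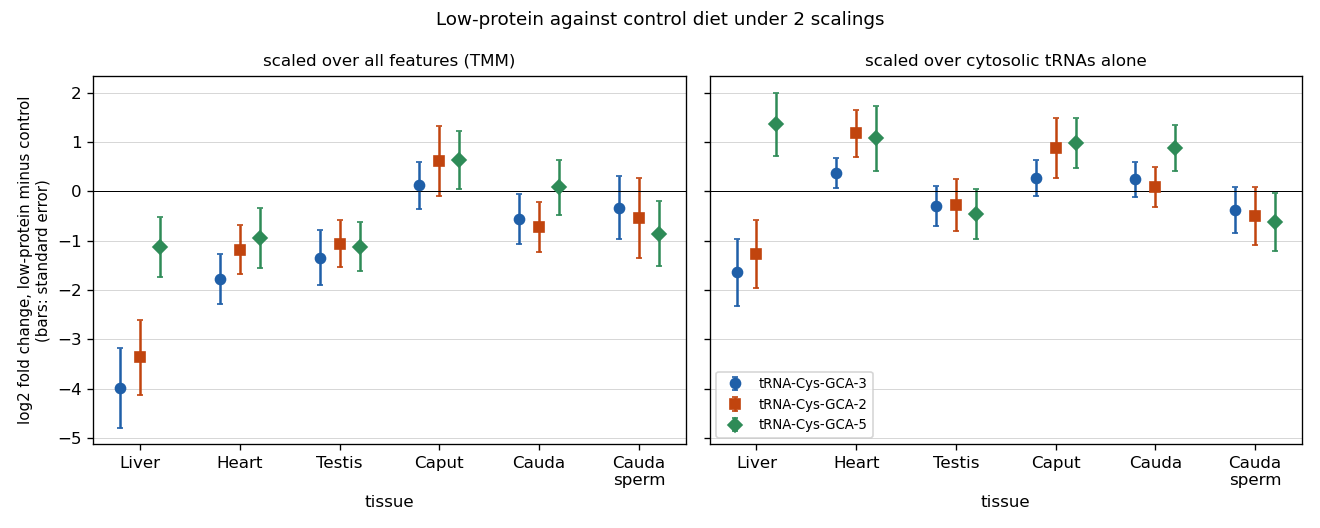
Log2 fold change of GCA-3, GCA-2 and GCA-5 on the low-protein diet against its control (bars: SE) in each tissue, with library sizes set over all features (left) and over cytosolic tRNAs alone (right). In liver GCA-3 is at -3.97 on the left and -1.64 on the right, and in heart it is at -1.78 on the left and 0.37 on the right.

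Heart mitochondrial cysteine tRNA was lower in LP hearts as well, at 2375 ± 1319 RPM, against 23120 ± 1658 RPM in control hearts, a log2 fold change of -3.41 ± 0.55 (adjusted p = 2.59e-09, edgeR). C_HF hearts were also lower than these control hearts, at 7201 ± 3265 RPM (log2 fold change -1.74 ± 0.51, adjusted p = 0.00176, edgeR). HF hearts had 6673 ± 937 RPM, so the control hearts had the highest mean of the 4 diets. LP hearts lay below C_HF hearts too, at -1.67 ± 0.51 (adjusted p = 0.00547, edgeR). Between the 2 controls no cytosolic member was called in heart by edgeR or DESeq2, none had an unadjusted p under 0.05, and GCA-3 was at 1001 ± 458 RPM in C_HF hearts and 1476 ± 138 RPM in control hearts (57.4% of all features were called). Scaled to cytosolic tRNA, edgeR called GCA-2 and GCA-5 higher in C_HF hearts, at 1.65 and 1.33 (adjusted p = 0.00322 and 0.0380). Against C_HF hearts, LP hearts had GCA-2 at a log2 fold change of -1.74 ± 0.51 and GCA-3 at -1.22 ± 0.50 (adjusted p = 0.00302 and 0.0392, edgeR), 2 of 4 members beside 25.6% of features called lower. Neither was called when scaled to cytosolic tRNA.

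In testis, where the family is most abundant, the low-protein diet gave no call. GCA-3 had 13166, 20891, 13359, 18752 and 14249 RPM in LP testes, against 20578, 21355, 11306, 19634 and 33269 RPM in control testes, and the groups overlap. The 8 tested members had log2 fold changes between -1.34 and -0.84 and an adjusted p of 0.522 or more, 6 of them with an unadjusted p under 0.05, and none was called by DESeq2 (0% of 447 features were called). The C_HF diet against control gave 7 of 8 members lower, beside 29.8% of features called lower. GCA-3 had 10668, 7304, 12461, 9114 and 14092 RPM in C_HF testes, overlapping the control testes at their lowest library only, and changed by -2.56 ± 0.58 (adjusted p = 0.00167, edgeR). All 7 calls were lost with total counts, where GCA-3 was at -0.98 (adjusted p = 0.0536), and when scaled to cytosolic tRNA, where it was at 0.14 (adjusted p = 0.798), its range over 18 alternatives being 2.9e-05 to 0.798. Those scalings moved the median of all features from 0.10 to 1.12 and 1.52. The 100 other cytosolic tRNAs had a median of -3.37, with 90 called lower, beside -1.84 over the 8 cysteine tRNAs. Depth moved with the diet here, with a median of 30415 reads in C_HF testes and 223942 in control testes, and its part in the result was not tested.

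Among the minor testis isodecoders, GCA-7 had 670, 321, 855, 410 and 743 RPM in C_HF testes and 677, 656, 314, 902 and 1058 RPM in control testes, and GCA-4 had 393, 178, 427, 307 and 383 RPM in C_HF testes and 371, 517, 305, 424 and 569 RPM in control testes. In RPM these groups overlap, although edgeR's scaling gave log2 fold changes of -1.80 ± 0.53 and -1.88 ± 0.52 (adjusted p = 0.00939 and 0.00585). GCA-8 was the member not called, with 106 ± 96.6 RPM in C_HF testes and 70.5 ± 21.5 RPM in control testes and a log2 difference of -0.88 ± 0.69 (adjusted p = 0.296, edgeR), so that for it the scaling turned the direction. GCA-17 had 106 ± 69.2 RPM in C_HF testes and 110.6 ± 21.3 RPM in control testes, and was called lower at -1.58 ± 0.63 (adjusted p = 0.0408, edgeR). Between LP and C_HF testes none of the 8 was called by edgeR or DESeq2, with 1 at an unadjusted p under 0.05 and 10.7% of all features called.

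In caput, the C_HF diet gave all 3 tested members higher than control, beside 17.9% of 145 features called higher. GCA-2 had 583, 327, 545, 268 and 308 RPM in C_HF caput, against 116, 72.9, 67.5, 198 and 98.2 RPM in control caput, with no overlap. GCA-5 had 1219, 560, 908, 447 and 748 RPM in C_HF caput, against 245, 72.9, 81.0, 473 and 123 RPM in control caput, where 1 control library lay above the lowest C_HF library. The log2 fold changes were 2.02 ± 0.43 for GCA-5, 1.98 ± 0.46 for GCA-2 and 1.39 ± 0.44 for GCA-3 (adjusted p = 0.00109, 0.00259 and 0.0203, edgeR), beside a median of 1.25 over 39 other cytosolic tRNAs, of which 22 were called higher. Scaled to cytosolic tRNA none of the 3 was called, with GCA-5 at 0.89, GCA-2 at 0.73 and GCA-3 at 0.12, and the median of all features moved from 0.02 to -1.31. Against C_HF caput, LP caput had GCA-5 at -1.38 ± 0.55 and GCA-3 at -1.27 ± 0.48 (2 of 3 members lower, beside 31.7% of features, adjusted p = 0.0351 and 0.0288, edgeR). Neither was called without the 2 LP libraries under 5000 reads. On LP against control no caput member passed by edgeR or DESeq2, none had an unadjusted p under 0.05, and 41.4% of all features were called. GCA-3 had 1839, 2125, 2193, 926 and 2686 RPM in LP caput, against 1153, 1603, 878, 2654 and 908 RPM in control caput.

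Cauda and sperm gave no call for any cysteine tRNA in the 4 diet comparisons, where 0% of features were called in each, by DESeq2 none of the 3 members in either tissue was called, and the members at an unadjusted p under 0.05 numbered 2 in LP against C_HF cauda and 0 in the other comparisons. In sperm GCA-3 had 175, 5532, 9841, 1899 and 1419 RPM on LP, against 5995, 6711, 1484, 3680 and 1309 RPM on control. Its log2 difference was -0.33 ± 0.64. The libraries of each sperm group differed from each other by more than the groups did. In cauda GCA-3 had 1495, 2567, 1999 and 3206 RPM on LP, against 2106, 1786, 3984, 5857 and 2916 RPM on control, a log2 difference of -0.56 ± 0.51 (adjusted p = 0.460, edgeR). The C_HF cauda libraries had 4035, 4033, 3944, 5059 and 17256 RPM, so that all 4 LP libraries lay below them, with a log2 difference of -1.24 ± 0.52, LP minus C_HF, that did not pass (adjusted p = 0.279, edgeR).

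The high-fat diet against its own control moved no cysteine tRNA past the test in any tissue. GCA-3 had 989, 1400, 0 and 38.9 RPM in HF livers against 813, 1798, 796 and 1891 RPM in C_HF livers, and 1603, 1309, 798 and 1576 RPM in HF hearts against 1241, 833, 1580, 353 and 997 RPM in C_HF hearts. In testis it had 7597, 3953, 16111 and 5547 RPM on HF, within and on both sides of the C_HF range. These groups overlap. The log2 difference of GCA-3, HF minus C_HF, lay between -0.33 and 0.59 over the 6 tissues, with standard errors of 0.46 to 0.82 and an adjusted p of 0.633 or more in edgeR's quasi-likelihood test. The features called were 2.93% in liver, 1.24% in heart, 0.69% in caput and 0% in testis, cauda and sperm. DESeq2 called no member either, and 1 of 4 had an unadjusted p under 0.05 in liver and none in the other tissues. GCA-5 in liver was the one member without overlap, with 40.1, 73.1, 0 and 0 RPM on HF and 181, 200, 319 and 222 RPM on C_HF, but it rests on 31 and 11 reads and had an adjusted p of 0.493 in edgeR.

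The effect of the low-protein diet differed between tissues for 3 of the 6 members tested in a fit with tissue by diet terms, beside 35.9% of 410 features. The F statistics were 12.4 for GCA-1, 6.26 for GCA-3 and 4.74 for GCA-2 (adjusted p = 6.11e-07, 0.000526 and 0.00400, edgeR's quasi-likelihood test). Without liver no member passed the test between the remaining 5 tissues, with adjusted p-values of 0.311 for GCA-1, 0.939 for GCA-3 and 0.931 for GCA-2. Over the scalings and library choices tried, liver left out included, the adjusted p ran from 5.95e-08 to 0.311 for GCA-1, from 4.3e-05 to 0.939 for GCA-3 and from 0.000466 to 0.931 for GCA-2. With all tissues, GCA-2 missed the threshold when scaled to cytosolic tRNA and without libraries under 5000 reads (adjusted p = 0.0779 and 0.0531). GCA-7 missed it in the reported fit (adjusted p = 0.0517) and passed with DESeq2 size factors, total counts and cytosolic tRNA scaling (adjusted p = 0.0473, 0.0284 and 0.0296). The mitochondrial cysteine tRNA differed both with and without liver (adjusted p = 0.000232 and 0.000757, edgeR). For the high-fat effect, no cysteine tRNA of the 6 passed, none had an unadjusted p under 0.05, and 3.17% of 379 features passed.

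The pattern of GCA-3 over the 24 groups was shared most with cytosolic tRNAs of other amino acids. Pearson's r of mean log2(RPM + 1) was 0.935 with tRNA-Thr-TGT-3, 0.875 with tRNA-Ser-GCT-3, 0.855 with tRNA-Pro-TGG-2, 0.840 with tRNA-Arg-CCG-3 and 0.834 with tRNA-Pro-AGG-1, the 5 highest of 288 entries compared, whose median was 0.487. Within the family r was 0.867 with GCA-2, 0.811 with GCA-1 and 0.747 with GCA-5. The selenocysteine tRNA had 0.327 and the mitochondrial cysteine tRNA 0.0689. These values describe groups that share tissues and have no test. Without the control-diet liver group the 5 highest lay between 0.816 and 0.933.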

How the data were processed

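Small RNA was measured as counts of reads per entry, 1 table of raw counts deposited by the authors. The submitters' processing notes name cutadapt, DESeq2 and the build mm10, with no version or role. How reads that match several tRNA copies were counted is unknown here. Of 1268 entries, 226 were left out as repeats, and the 1042 kept held 51.1% of the counts. Of those left out, 149 had nearly the same reads as another entry. A further 22 were second names of mitochondrial tRNAs, and 55 were entries of 5S ribosomal RNA other than the most abundant. These were dropped by name or class, without a comparison of reads. RPM and shares were computed over these. Diets were compared within each tissue, all 4 diets in 1 fit, with edgeR 4.0.16 (R 4.3.3): quasi-likelihood test, TMM scaling, filterByExpr, robust fit, Benjamini-Hochberg adjustment over all features tested. Tissues were compared in 1 fit with diet as a covariate, and differences of diet effects between tissues by tissue by diet terms. The labels do not tie libraries of different tissues to animals. These fits therefore treat all libraries as independent, although some tissues may come from the same mice. SE is the log2 fold change divided by the root of F. Alternatives were DESeq2 1.42.0, other scalings, no filter, a replicate block, 2 diets alone, all entries as deposited, no libraries under 5000 reads, and each library left out. Leaving out the control-diet livers, replicate 5 of the C_HF cauda, or liver in the tissue by diet test was chosen after seeing the data.

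The 10 members, the lists and the tests were chosen with earlier results of these data known. All members are named or counted, with the mitochondrial cysteine and selenocysteine tRNAs, and the 5 entries outside the family most correlated with GCA-3 over group means. The steps were tested on simulated data. In that test 65.1% of the 4-fold and 87.7% of the 8-fold changes put into the liver comparison of LP with control were called, and 64.4% and 93.0% in sperm. False calls made up 0% of the calls in liver, 2.82% in sperm and 7.44% in heart. The changes were put into features at random, up and down. The test therefore cannot show how the scaling behaves when most cytosolic tRNAs move the same way, as in the livers. No 2 libraries of a group agreed within sampling noise, the lowest chi-square per degree of freedom over 204 pairs being 1.54. Floors at 3 reads cover counting error only. Libraries with the same replicate number in a tissue deviated together, with every correlation over 0.1, for C_HF and C sperm (0.439 to 0.762), and for HF and C_HF caput (0.113 to 0.368), cauda (0.132 to 0.450) and liver (0.175 to 0.292). This pairing comes from the data, not the labels. Replicate numbers here are those of the sample titles. In control livers, C_HF livers and LP cauda they differ in places from the numbers in the library names. Some liver pairs thus join libraries whose names hold different numbers.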

Additional observations from a re-analysis of the deposited data

Results flagged for a closer look

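Of 96 combinations of a measure and a group that were examined for a library far from the others, 7 held one, where chance alone gives about 1 in 20. Replicate 5 of the C_HF cauda accounted for 4 of these. It had 17255.8 RPM of GCA-3, where the other 4 libraries had 3944 to 5059 RPM, and 1435.65 RPM of GCA-2, where they had 329 to 514 RPM. It had 2231.98 RPM of GCA-5, where they had 364 to 522 RPM, and the family made up 3.69385% of its cytosolic tRNA reads, where they had 1.14% to 1.41%. Replicate 2 of the control livers had 2036.29 RPM of GCA-2, below the 2583 to 2671 RPM of the other 3. The family share was 6.78493% in replicate 5 of the LP testes, where the others had 3.40% to 3.95%, and 2.61491% in replicate 2 of the control sperm, where the others had 1.63% to 1.84%.

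The effect of the low-protein diet differed between tissues for 3 members, by edgeR's test of the tissue by diet terms. The F statistics were 12.3754 for GCA-1, 4.73884 for GCA-2 and 6.26273 for GCA-3. None of the 3 passed that test between the 5 tissues other than liver, with an adjusted p of 0.311 or more. In liver, diet and the run of header numbers cannot be told apart.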

How the results depend on the processing

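The 3 calls each in LP and C_HF livers against control livers kept their direction under every alternative run, and were lost for GCA-2 alone, when scaled to cytosolic tRNA. The 5 lower calls in sperm against testis and the absence of calls for HF against C_HF also held throughout. Where alternatives moved the number of members called, the cause was not tested. Shallow caput, sperm and C_HF liver libraries limit the rare members most.

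With scaling to cytosolic tRNA the number called was 1 in heart LP against C (3 by the reported fit), 2 in heart C_HF against C (0), 0 in heart LP against C_HF (2), 0 in testis C_HF against C (7), 0 in caput C_HF against C (3), 0 in caput LP against C_HF (2), 1 in sperm against the other tissues (2) and 1 in cauda against caput (4). With total counts it was 1 in heart LP against C_HF, 0 in testis C_HF against C, 0 in caput LP against C_HF, 1 in liver (2) and 6 in heart (2) against the other tissues, 1 in sperm against the others, 2 in sperm against cauda (1) and 2 in cauda against caput. With DESeq2 size factors it was 1 in heart and 0 in caput LP against C_HF, and 1 in liver, 4 in heart and 0 in cauda (1) against the others. DESeq2's Wald test gave 1 in heart and 0 in caput LP against C_HF, 5 in heart and 2 in cauda against the others, and 1 in cauda against caput. Without the filter on low counts it was 1 in heart and 0 in caput LP against C_HF, 7 in testis (4) and 0 in cauda against the others, 8 in sperm against testis (5) and 1 in cauda against caput. With the 2 diets alone it was 0 in heart LP against C, 1 in heart C_HF against C, 0 in heart and 0 in caput LP against C_HF, and 3 in testis LP against C_HF (0). The 2 control diets alone gave 1 in heart against the others. All entries as deposited gave 1 in heart C_HF against C, 0 in caput LP against C_HF, 0 in cauda and 4 in sperm against the others, 2 in sperm against cauda and 1 in cauda against caput. Without libraries under 5000 reads it was 0 in caput LP against C_HF and 2 in sperm against cauda. Without the control-diet livers it was 1 in heart, 1 in caput (4) and 0 in cauda against the others, 2 in sperm against cauda and 1 in cauda against caput. Leaving out 1 library gave 0 to 4 in heart LP against C, 1 to 4 in heart LP against C_HF, 4 to 7 in testis C_HF against C and 0 to 2 in caput LP against C_HF. Without replicate 5 of the C_HF cauda 0 were called in cauda against the others and 1 in cauda against caput.

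Some log2 fold changes that changed sign were small and not called, and others had been called in the reported fit. Among the latter were members in heart LP against C and in testis C_HF against C. GCA-2 in heart LP against C was called in both directions, at -1.18 in the reported fit and 1.18 when scaled to cytosolic tRNA. For GCA-3 scaling to cytosolic tRNA gave 0.42 in caput HF against C_HF, 0.15 in caput LP against C_HF, 0.24 in cauda LP against C, -0.089 in cauda against the others, 0.65 in heart C_HF against C, -0.10 in heart HF against C_HF, 0.37 in heart LP against C, 0.20 in sperm C_HF against C, -0.57 in sperm and -0.44 in testis LP against C_HF, and 0.14 in testis C_HF against C. That scaling also gave 0.088 for GCA-5 in caput LP against C_HF, 0.15 for GCA-1 and 1.18 for GCA-2 in heart LP against C, and 0.86 for GCA-17, 0.38 for GCA-2, 0.64 for GCA-4, 0.85 for GCA-5 and 0.82 for GCA-7 in testis C_HF against C. The other reversals of GCA-3 were, with DESeq2 size factors and its Wald test, 0.043 and 0.037 in caput and 0.00105 and 0.00026 in sperm HF against C_HF, -0.12 and -0.10 in liver and 0.10 and 0.10 in sperm against the others. With the 2 diets alone GCA-3 was at 0.25 in caput HF against C_HF, and with all entries at 0.10 there, 0.33 in cauda HF against C_HF and 0.48 in sperm LP against C. Without the filter it was -0.11 in caput LP against C and 0.045 in cauda HF against C_HF. Total counts gave -0.81 in liver HF and -0.53 in liver LP against C_HF. Without the control-diet livers it was -1.18 in liver and 0.39 in heart against the others, with GCA-1 at -1.53 and GCA-2 at -0.064 in liver. Without replicate 5 of the C_HF cauda it was -0.055 in cauda and 0.045 in heart against the others.

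With the replicate block, no count changed where same-numbered libraries deviated together, and GCA-3 in cauda HF against C_HF moved to 0.083. Elsewhere the libraries share only a number, and the block took 1 call, GCA-17 in testis C_HF against C, which was -1.49 (adjusted p = 0.0950, edgeR, range over 17 alternatives 0.0247 to 0.906).

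Leaving out each library in turn put GCA-3 at -0.45 to 0.41 in caput HF against C_HF, -0.35 to 0.68 in caput LP against C, -0.12 to 0.86 in cauda C_HF against C, -0.78 to 0.25 in cauda HF against C_HF, -0.34 to 1.04 in liver HF against C_HF, -0.082 to 0.59 in liver LP against C_HF, -0.86 to 0.038 in sperm LP against C and -0.84 to 0.041 in testis HF against C_HF.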
